A study of Mus musculus with 168 samples.

Results

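The cortex of Q175 mice at 10 months was compared with that at 2 months. Q175 mice are heterozygous for a knock-in allele of the mouse Htt gene whose CAG repeat is expanded to a nominal 175 copies, on a C57BL/6 background. The members are the 16 libraries that the sample titles give as heterozygous Q175 cortex of 10 months (8 libraries) or of 2 months (8 libraries), out of 168 cortex libraries in the series. The series holds 21 groups of 8 libraries, from wild-type mice and from 6 knock-in alleles at 2, 6 and 10 months, and polyA RNA of frozen tissue was sequenced. Each age group had 4 females and 4 males, and the Q175 mice were housed with other Q175 mice. For reference, the same ages were taken from mice heterozygous for the Q20 allele, with a nominal 20 CAG copies, and from wild-type (WT) mice, which were housed with the Q20 mice (8 libraries per age and genotype). All are the same strain and tissue, so that genotype and housing cannot be told apart between Q175 and the other mice. The names of the libraries fall into 1 number series for 10 months and another for 2 months, in Q175, Q20 and WT mice, so that age and library series cannot be told apart within a genotype.

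Huntington's disease is caused by expansion of the CAG repeat of HTT, which lengthens a polyglutamine stretch at the start of the huntingtin protein. Striatal projection neurons are the cells best known to be affected, and the pyramidal neurons of the cortex that project to them are affected as well. In healthy mouse cortex, the months after weaning bring further myelination and fewer dividing precursor cells.

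The 10-month libraries held 31526324 to 39046572 estimated counts and the 2-month libraries 30777599 to 40770895. The order of Xist and Ddx3y matched the labelled sex in 16 of 16 libraries. Defining cortical transcripts were present in every library: Slc17a7, the vesicular glutamate transporter of cortical pyramidal neurons, ranged over 290.3 to 376 FPKM and Tbr1, a cortical transcription factor, over 24.5 to 31.2 FPKM. One 2-month library, male 2, stood apart with a summed level of 971 CPM (counts scaled to a common library size) for 13 choroid plexus markers, and it had the lowest median correlation with its group (Pearson's r of 0.9878). Htt itself had 132, 160.3 and 166 CPM in 10-month libraries, against 142, 165 and 177 CPM in 2-month libraries (lowest, median and highest of 8 libraries each). The groups overlapped, and the log2 difference, 10 minus 2 months, was -0.03 ± 0.04 (standard error; adjusted p = 0.56). These counts do not separate the knock-in allele from the normal allele.

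Age separated the 16 libraries along the first principal component of log2 CPM, on which the 10-month libraries lay between 13.2 and 22.2 and the 2-month libraries between -22.0 and -13.2. Sex separated them along the second. Of 16453 genes tested, 5705 passed an adjusted p of 0.05 in edgeR's quasi-likelihood test with sex as a covariate, or 34.7%. Of all genes tested, 17.7% were higher at 10 months (2905 genes) and 17% were lower (2800 genes). Counts of list members that rose or fell in Q175, given below, are to be read beside these shares. The differences were mostly small. The median size of the log2 difference was 0.16 among genes that rose and 0.29 among genes that fell. A log2 difference over 1 was reached by 152 genes that fell and by 29 that rose. The ranges of the 8 libraries at 10 months and the 8 at 2 months did not overlap for 583 genes that rose and 759 that fell, together 8.16% of the genes tested. The median log2 difference over all genes tested was 0.00. It moved with the GC content of the transcripts, with a median of 0.06 in the 1624 genes lowest in GC and -0.09 in the 1624 highest. With an offset that removes this trend, 5596 genes passed. Here and below, a log2 difference is given with its standard error. The labels do not name the mouse of each library, so that the p-values measure the spread between these libraries.

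**Figure D1:**
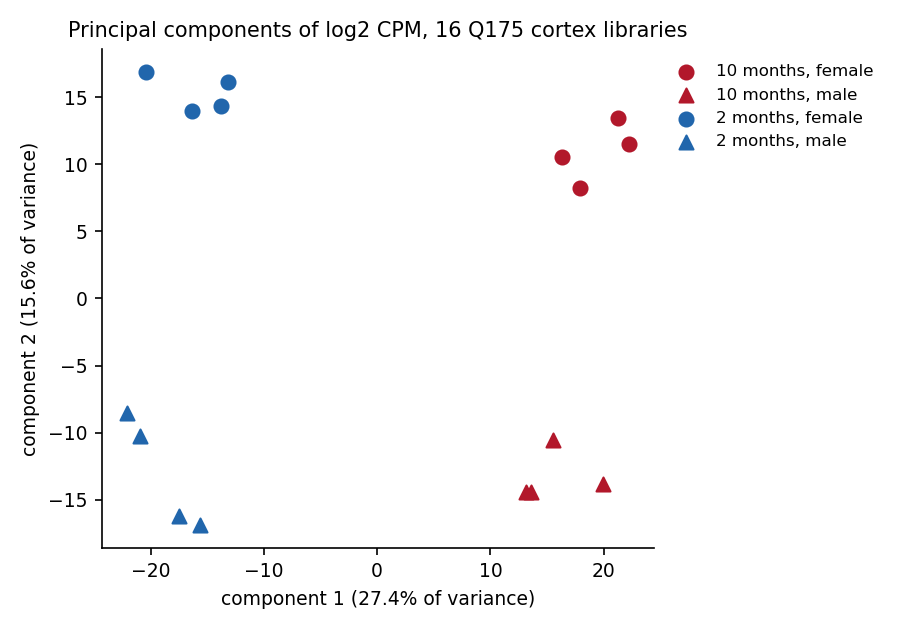
Principal components of log2 CPM over the 16 Q175 cortex libraries, with component 1 (27.4% of variance) on the horizontal axis and component 2 (15.6%) on the vertical axis. Each point is 1 library, coloured by age and shaped by sex; the 10-month libraries lie between 13.2 and 22.2 and the 2-month libraries between -22.0 and -13.2 on component 1.

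Among the genes that rose with the smallest p were a developmental transcription factor, genes of oligodendrocytes and genes of the secretory pathway of neurons. Onecut2, a homeobox transcription factor best known from development, had 10.3, 13.5 and 15.5 CPM in 10-month libraries, against 4.09, 4.66 and 5.73 CPM in 2-month libraries (lowest, median and highest). Every 10-month library lay above every 2-month library, and the level at 10 months was 2.87 times that at 2 months (log2 difference 1.52 ± 0.08, adjusted p = 1.5e-11). Abca8a (chr11:110025634-110095978, minus strand), a lipid transporter of the ABC family, had 20.1, 22.1 and 23.4 CPM in 10-month libraries, against 8.04, 10.3 and 11.1 CPM in 2-month libraries. Its groups did not overlap either, at a log2 difference of 1.14 ± 0.05, adjusted p = 3.2e-12. Anln (chr9:22332012-22389188), anillin, a scaffold of actin and septins found in myelin, averaged 53.01 ± 4.4 CPM at 10 months and 29.9 ± 3.0 CPM at 2 months (SD, n = 8 each; log2 difference 0.83 ± 0.06, adjusted p = 2.3e-08). Scg5, the chaperone of a prohormone convertase, averaged 205 ± 7.7 CPM at 10 months and 154 ± 6.1 CPM at 2 months, a rise of 0.42 ± 0.03 on the log2 scale. Serpini1, neuroserpin, a protease inhibitor that neurons secrete, rose by 0.38 ± 0.03. The others of the 12 were Spag6, a protein of the ciliary axoneme (1.12 ± 0.08), the cell adhesion genes Pcdhb3 (0.76 ± 0.05) and Pcdhb9 (0.60 ± 0.05), Edil3, a secreted ligand of integrins (0.41 ± 0.03), Cpox, an enzyme of haem synthesis (0.37 ± 0.03), Prrg1, a membrane protein (0.74 ± 0.06), and Pls1, which bundles actin (0.54 ± 0.05). None of these 12 genes had overlapping groups, and the largest adjusted p among them was 3.7e-08.

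The genes that fell with the smallest p included genes of upper-layer neurons, of cAMP signalling and of neuronal development. Otof (chr5:30367062-30461932, minus strand), otoferlin, a calcium sensor of vesicle release, had 14.1, 15.9 and 17.7 CPM in 10-month libraries, against 42.9, 48.2 and 58.3 CPM in 2-month libraries. The groups lay far apart, the level at 10 months being 0.324 times that at 2 months (log2 difference -1.62 ± 0.06, adjusted p = 4.3e-13). Plk5 (chr10:80356459-80365489), a polo-like kinase family member of neurons, had 3.82, 4.67 and 6.84 CPM in 10-month libraries, against 15.4, 17.7 and 21.97 CPM in 2-month libraries, again without overlap (log2 difference -1.86 ± 0.10, adjusted p = 2.0e-10). Myh7, a myosin heavy chain best known from slow muscle and heart, had 4.12, 4.69 and 6.999 CPM in 10-month libraries, against 15.9, 16.4 and 18.2 CPM in 2-month libraries. Its log2 difference was -1.70 ± 0.09, adjusted p = 4.4e-11. Arpp21, a phosphoprotein regulated by cAMP, averaged 308 ± 10.1 CPM at 10 months and 432 ± 9.8 CPM at 2 months (log2 difference -0.48 ± 0.02, adjusted p = 1.5e-11). Hap1, huntingtin-associated protein 1, a partner of huntingtin in vesicle transport, averaged 86.4 ± 4.7 CPM at 10 months and 162 ± 15 CPM at 2 months (log2 difference -0.90 ± 0.05, adjusted p = 2.0e-10). A fall of Hap1 was not particular to Q175 mice. In Q20 mice Hap1 ranged over 156 to 192 CPM at 2 months and 77.5 to 143 CPM at 10 months. In WT mice the ranges were 139 to 197 CPM and 87.3 to 162 CPM. Marcksl1, an actin-binding protein of growing neurites, had a log2 difference of -0.98 ± 0.05, Lypd1, a membrane-anchored modulator of nicotinic receptors, of -0.94 ± 0.04 and Igsf9, an adhesion protein of dendrites, of -1.01 ± 0.06. Gpr153, an orphan receptor, had a log2 difference of -0.9995 ± 0.05, Trp53i11 of -0.68 ± 0.04, Nbl1, a secreted antagonist of BMP, of -0.79 ± 0.05 and Dlk1, an imprinted gene of the Notch ligand family, of -3.05 ± 0.16.

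The largest rises among genes with at least 1 CPM at either age and no overlap of groups included, beside Onecut2, Abca8a and Spag6, another pair of developmental transcription factors. Pax2 had 0.700, 0.946 and 2.13 CPM in 10-month libraries, against 0.0744, 0.166 and 0.260 CPM in 2-month libraries (log2 difference 2.71 ± 0.27, adjusted p = 2.0e-07). En2 had 0.971, 1.07 and 1.86 CPM in 10-month libraries, against 0.217, 0.584 and 0.935 CPM in 2-month libraries (log2 difference 1.07 ± 0.21, adjusted p = 4.0e-04). Prss16, a serine protease (1.36 ± 0.14), Ppl, periplakin (1.02 ± 0.11), and Dmgdh, a mitochondrial enzyme of choline breakdown (0.91 ± 0.12), completed the 8. In a list of 15 developmental transcription factors, of which 9 could be tested, 4 rose and 2 fell. The risers were Pax2, Shox2 (2.31 ± 0.27), Onecut1 (1.94 ± 0.33) and Onecut2. Nkx2-1 (-2.74 ± 0.34) and Lhx9 (-1.10 ± 0.28) fell. Shox2 averaged 0.519 ± 0.12 CPM at 10 months and 0.104 ± 0.055 CPM at 2 months and Onecut1 0.712 ± 0.31 CPM at 10 months and 0.183 ± 0.13 CPM at 2 months, which are low levels.

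The largest falls included several genes known from the basal forebrain and striatum, which lie under the cortex. Chat, the enzyme of acetylcholine synthesis, had 0.147, 0.278 and 0.564 CPM in 10-month libraries, against 0.665, 2.74 and 4.19 CPM in 2-month libraries (log2 difference -3.12 ± 0.29, adjusted p = 5.7e-07). Slc10a4, a vesicular transporter of cholinergic neurons, had 0.0282, 0.131 and 0.217 CPM in 10-month libraries, against 0.520, 2.69 and 3.67 CPM in 2-month libraries (-4.23 ± 0.38, adjusted p = 4.0e-07). The homeobox genes Isl1 (-4.21 ± 0.44), Gbx1 (-3.72 ± 0.30) and Six3 (-3.32 ± 0.31), the antisense transcript Six3os1 (-3.49 ± 0.24), Arhgap36 (-3.19 ± 0.31) and Dlk1 made up the other 6. Each of these genes was lower in every 10-month library than in any 2-month library of Q20 and of WT mice too. Chat had 2.16 to 4.36 CPM at 2 months and 0.241 to 0.531 CPM at 10 months in WT mice. Among 2-month Q175 libraries, male 1 had the lowest value of each of these genes. Six3 and Six3os1 overlap, and whether the counts used strand is not given in the sources used here, so that their reads cannot be told apart. Of 20 markers of striatal projection neurons, 19 fell and 1, Foxp1, rose, with a median log2 difference of -0.94. The summed level of the 20 markers was 565 to 695 CPM in 10-month libraries and 695 to 1080.3 CPM in 2-month libraries, every 10-month library lying below every 2-month library, if narrowly, and no marker was at 0 in all 16 libraries. Over 2, 6 and 10 months the median of that sum was 965, 929 and 587 CPM in Q175 mice. It was 1067, 1151 and 687 CPM in Q20 mice and 1139.9, 1173 and 715 CPM in WT mice. The summed striatal markers were thus lowest at 10 months in each genotype. Their part in the other results was not tested, and in bulk tissue fewer cells of a type and less RNA per cell cannot be told apart. Markers of thalamus (5 of 12 fell, median -0.16), hippocampus (1 rose and 3 fell of 10) and choroid plexus (2 fell of 11 tested) had fewer members that passed. The summed levels of thalamus and hippocampus markers were nonetheless lower in every 10-month library than in any 2-month library. They were 329 to 351 CPM at 10 months and 368 to 433 CPM at 2 months for thalamus, and 87.4 to 107 CPM at 10 months and 150.3 to 167 CPM at 2 months for hippocampus. Much of the hippocampus sum and of its difference was 1 gene, Wfs1, whose levels are given below, and 6 of the 10 markers did not pass. The summed choroid plexus level was 12.03 to 99.9 CPM at 10 months and 19.7 to 971 CPM at 2 months, the upper end being the library named above.

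**Figure D2:**
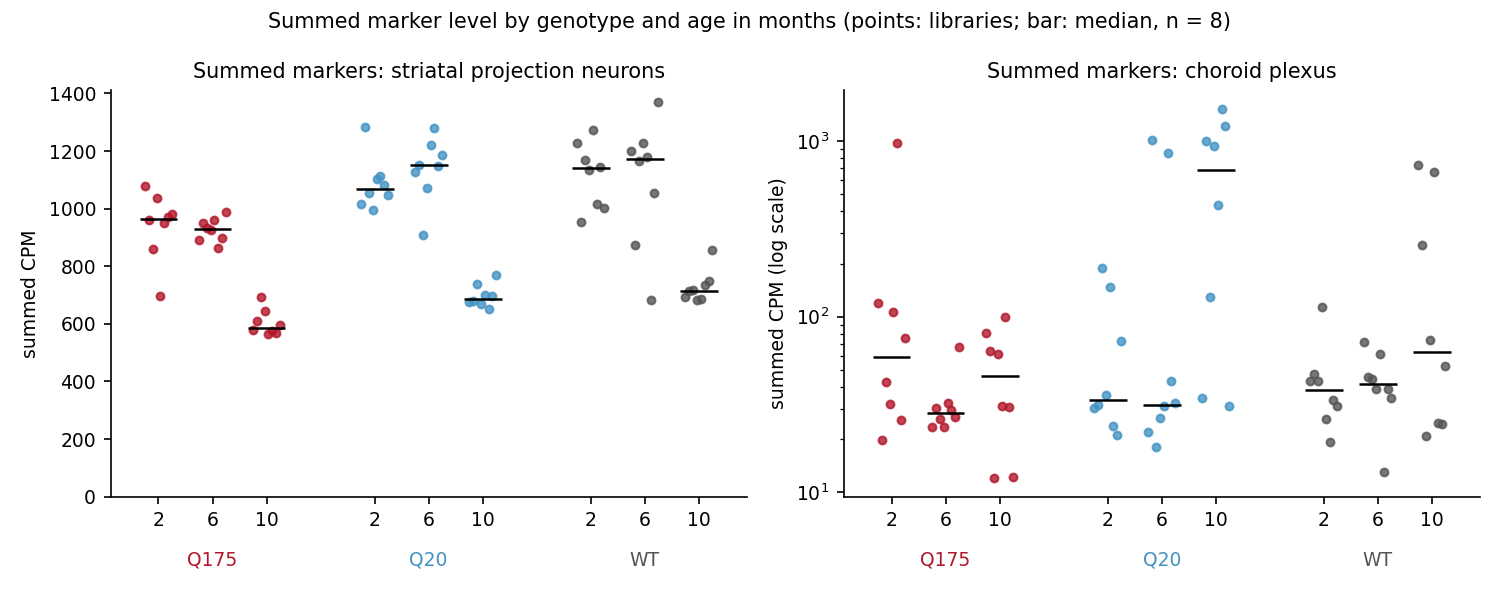
Summed CPM of 20 striatal projection neuron markers (left, linear axis) and 13 choroid plexus markers (right, log axis) in Q175, Q20 and WT libraries by age in months; points are libraries and bars medians of 8. The striatal sum is lowest at 10 months in each genotype, with medians of 587, 687 and 715 CPM, while the choroid plexus sum ranges from 12.03 to 1523 CPM between libraries.

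In the oligodendrocyte lineage, markers of precursors and of newly forming cells fell while part of the myelin genes rose. Of 13 precursor markers tested, 9 fell and 0 rose, with a median log2 difference of -0.32 beside 0.00 over all genes. Gpr17, a receptor of differentiating precursors, had 27.96, 31.3 and 40.8 CPM in 10-month libraries, against 46.9, 60.4 and 66.96 CPM in 2-month libraries (log2 difference -0.88 ± 0.08, adjusted p = 4.2e-07). Neu4, a sialidase (-0.58 ± 0.06), Cacng4 (-0.56 ± 0.04), Ptprz1, a receptor phosphatase (-0.39 ± 0.04), and Pdgfra, the growth factor receptor of precursors (-0.32 ± 0.05), fell as well, while Sox10 (0.10 ± 0.06) and Olig2 (-0.09 ± 0.08), transcription factors of the whole lineage, did not pass the test. Of 15 markers of newly forming oligodendrocytes, 11 fell (median -0.21), and Bcas1 (0.23 ± 0.04) and Enpp6 (0.24 ± 0.07) rose. Of 24 genes of mature oligodendrocytes and myelin, 9 rose and 2 fell (median 0.10). Gjb1, a connexin of myelinating cells, had 10.8, 11.5 and 11.9 CPM in 10-month libraries, against 7.40, 8.25 and 10.1 CPM in 2-month libraries (log2 difference 0.46 ± 0.06, adjusted p = 3.5e-06). Ermn, ermin, a cytoskeletal protein of myelin, rose by 0.46 ± 0.05 and Trf, the iron carrier transferrin, by 0.31 ± 0.04. The abundant structural myelin genes Mbp (0.06 ± 0.05) and Mobp (0.07 ± 0.05) did not pass the test.

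Astrocyte genes were lower at 10 months almost throughout. Of 18 markers, 15 fell and 1, S100b (0.14 ± 0.03), rose, with a median log2 difference of -0.27. Their summed level was 6741 to 7572 CPM at 10 months and 8336 to 9132 CPM at 2 months, without overlap. Gja1, the gap junction protein connexin 43, had 144, 155 and 179 CPM in 10-month libraries, against 202, 215 and 224 CPM in 2-month libraries (log2 difference -0.41 ± 0.04, adjusted p = 3.5e-08). Slc4a4, a bicarbonate transporter, had 145, 154 and 156 CPM in 10-month libraries, against 180.0, 208 and 228 CPM in 2-month libraries (-0.42 ± 0.04, adjusted p = 2.2e-08). The glutamate transporters Slc1a3 (-0.36 ± 0.04) and Slc1a2 (-0.24 ± 0.03), glutamine synthetase Glul (-0.25 ± 0.03), the water channel Aqp4 (-0.35 ± 0.04) and the potassium channel Kcnj10 (-0.28 ± 0.03) fell too. Genes of reactive gliosis did not share a direction: of 19, 14 were tested, 3 rose and 3 fell. Serpina3n, a protease inhibitor that reactive astrocytes secrete, had 11.9, 13.3 and 14.3 CPM in 10-month libraries, against 6.81, 8.33 and 10.2 CPM in 2-month libraries (0.66 ± 0.06, adjusted p = 1.4e-07), and complement component C4b rose by 0.53 ± 0.08. Both have close paralogs whose reads could be shared. Gfap, the intermediate filament that marks reactive astrocytes, fell (-0.30 ± 0.09), as did Hspb1 (-0.61 ± 0.14) and Aspg (-0.66 ± 0.12), while Vim (-0.01 ± 0.05) did not pass the test.

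Microglial markers moved little, and the share of them that passed was near the 34.7% of all genes. Of 20, 1 rose and 6 fell (median -0.04), among them Csf1r, the growth factor receptor of microglia (-0.23 ± 0.04), Fcrls (-0.32 ± 0.05) and Tmem119 (-0.15 ± 0.05), while the protease Ctss rose (0.26 ± 0.04). P2ry12 (0.01 ± 0.06) and Aif1 (0.03 ± 0.09) did not pass the test. Of 20 genes of activated microglia, 16 were tested, 3 rose and 7 fell. Apoe, which astrocytes make as well (-0.42 ± 0.05), and Lpl, lipoprotein lipase (-0.46 ± 0.05), fell, while Csf1 (0.23 ± 0.03) and Gpnmb (0.34 ± 0.13) rose.

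Of 24 genes induced by interferon, 8 rose and 0 fell, and 16 did not pass, with a median log2 difference of 0.20. Their summed level overlapped between the ages, at 175 to 211 CPM at 10 months and 154 to 189 CPM at 2 months. Of 16 genes of antigen presentation, 6 rose and 1 fell (median 0.13). Xaf1, an interferon-induced antagonist of inhibitors of apoptosis, had 7.38, 8.10 and 9.01 CPM in 10-month libraries, against 5.20, 5.63 and 6.64 CPM in 2-month libraries (log2 difference 0.52 ± 0.06, adjusted p = 3.2e-06). Ifit2, which restrains translation of viral RNA, had 13.03, 14.6 and 15.6 CPM in 10-month libraries, against 10.4, 11.3 and 12.99 CPM in 2-month libraries (0.33 ± 0.05, adjusted p = 5.1e-05). Psmb8, a subunit of the immunoproteasome, rose by 0.49 ± 0.08, the class I heavy chain H2-D1 by 0.32 ± 0.05 and its partner B2m by 0.19 ± 0.05, whereas H2-T23 fell (-0.18 ± 0.06). Class II genes such as Cd74 (-0.39 ± 0.15) did not pass the test. Class I genes and the Ifit genes have near-identical copies, so that their shared reads leave the single values uncertain.

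The promoters of these lists were searched, as a description, for the interferon-stimulated response element (GAAA, then any 2 bases, then GAAA) on either strand, in windows of 250 bases before to 50 after the start site (RefSeq, GRCm38.p6). It was present in 9 of the 16 interferon-stimulated genes with a listed promoter, in 2 of 11 genes of antigen presentation and in 3.49% of 27025 promoters of all genes. Among the genes that passed the test it was present in 4 of 6 and 2 of 5. Of the last pair, B2m rose and H2-T23 fell. A pair from the interferon list and the shared light chain of class I molecules are shown because they rose and hold the element, with the element in capitals, 5′ to 3′ on the strand of the gene. Rsad2, viperin, an antiviral enzyme, rose by 0.46 ± 0.12; its window is chr12:26456403-26456702, minus strand. Ifit3 rose by 0.32 ± 0.08; its window is chr19:34583279-34583578, plus strand, and holds the element at 2 places. B2m rose by 0.19 ± 0.05; its window is chr2:122147437-122147736, plus strand.
Rsad2: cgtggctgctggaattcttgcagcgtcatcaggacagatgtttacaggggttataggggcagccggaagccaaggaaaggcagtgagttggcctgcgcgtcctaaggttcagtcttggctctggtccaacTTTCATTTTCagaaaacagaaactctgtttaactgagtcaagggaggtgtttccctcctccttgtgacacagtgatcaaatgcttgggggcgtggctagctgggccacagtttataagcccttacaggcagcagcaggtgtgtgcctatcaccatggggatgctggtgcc
Ifit3: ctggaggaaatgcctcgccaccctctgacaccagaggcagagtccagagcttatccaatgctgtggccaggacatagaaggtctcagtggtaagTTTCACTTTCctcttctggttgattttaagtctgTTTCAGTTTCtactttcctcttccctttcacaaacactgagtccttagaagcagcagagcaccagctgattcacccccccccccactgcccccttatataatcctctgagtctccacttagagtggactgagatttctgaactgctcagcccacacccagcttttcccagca
B2m: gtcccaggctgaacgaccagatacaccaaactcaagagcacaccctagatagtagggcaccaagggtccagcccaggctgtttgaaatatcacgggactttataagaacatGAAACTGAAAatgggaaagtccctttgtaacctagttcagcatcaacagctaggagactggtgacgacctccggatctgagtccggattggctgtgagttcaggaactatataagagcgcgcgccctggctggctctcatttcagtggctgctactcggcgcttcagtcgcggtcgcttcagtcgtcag

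Most genes of extracellular matrix fell, and among genes of vessels and of immature or dividing cells more fell than rose. Of 20 collagen and matrix genes, 17 fell and 1, Col6a2 (0.29 ± 0.05), rose, with a median log2 difference of -0.48. Col3a1, a fibrillar collagen, had 0.613, 1.37 and 2.24 CPM in 10-month libraries, against 3.001, 4.26 and 5.35 CPM in 2-month libraries (log2 difference -1.59 ± 0.15, adjusted p = 9.5e-08). Col1a2 (-0.80 ± 0.08), the collagen chaperone Serpinh1 (-0.76 ± 0.08) and the basement membrane chain Col4a2 (-0.47 ± 0.05) fell too. Of 12 genes of perineuronal nets, the matrix around inhibitory neurons, 8 fell and 1, Hapln4, rose. Tnc, tenascin C, had 1.97, 2.50 and 2.84 CPM in 10-month libraries, against 4.32, 4.96 and 6.01 CPM in 2-month libraries (-1.05 ± 0.08, adjusted p = 5.5e-09), and the lecticans Bcan (-0.43 ± 0.04) and Ncan (-0.34 ± 0.03) fell, while Acan, the main proteoglycan of mature nets, did not pass the test (0.04 ± 0.09). Of 11 mural cell markers 8 fell, led by the contractile genes Acta2 (-0.90 ± 0.16), Tagln (-0.89 ± 0.16) and Myh11 (-0.85 ± 0.14). Of 15 endothelial markers 7 fell (median -0.16), among them the receptor Tek (-0.34 ± 0.05). Haemoglobin and other blood genes did not pass the test (0 of 5).

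Among 20 genes of immature neurons, 11 fell and 2 rose (median -0.23). Igfbpl1 had 0.122, 0.177 and 0.310 CPM in 10-month libraries, against 0.607, 1.17 and 1.49 CPM in 2-month libraries (log2 difference -2.45 ± 0.22, adjusted p = 4.5e-08), and Nnat, neuronatin, averaged 60.3 ± 9.8 CPM at 10 months and 131 ± 10.1 CPM at 2 months (-1.12 ± 0.07, adjusted p = 2.9e-09). The transcription factors Sox4 (-0.66 ± 0.07) and Sox11 (-0.63 ± 0.14) and the tubulin Tubb2b (-0.42 ± 0.03) fell, while Dcx, doublecortin (-0.06 ± 0.08), did not pass the test and the tubulin regulators Stmn1 (0.24 ± 0.04) and Stmn2 (0.17 ± 0.03) rose. Of 22 cell cycle genes 18 were tested, 7 fell and 2 rose. Top2a, the topoisomerase of dividing cells, had 0.186, 0.727 and 0.901 CPM in 10-month libraries, against 1.26, 1.93 and 2.45 CPM in 2-month libraries (-1.51 ± 0.20, adjusted p = 6.6e-06). Mki67 (-1.27 ± 0.12) and Cenpf (-1.28 ± 0.18), further markers of division, fell too. Of 21 beta protocadherins, adhesion molecules of neurons encoded in 1 gene cluster, 10 rose and 0 fell, with a median of 0.26, from Pcdhb7 (0.27 ± 0.07) to Pcdhb2 (0.82 ± 0.16). The cluster's genes are alike in sequence, and how the authors' counting shared reads among them is not given in the sources used here.

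Among neurons, most markers of the upper cortical layers fell, while those of the deep layers were divided. Of 12 upper-layer genes 9 fell and 2 rose (median -0.20). Of 15 deep-layer genes 4 fell and 4 rose (median -0.07). The difference between the lists was not tested. Beside Otof, Wfs1, an endoplasmic reticulum protein, had 43.4, 54.1 and 60.1 CPM in 10-month libraries, against 102, 114 and 116 CPM in 2-month libraries (log2 difference -1.08 ± 0.06, adjusted p = 2.9e-09), and Nptx2, a secreted pentraxin that clusters glutamate receptors and also an immediate early gene, had 16.6, 21.9 and 24.8 CPM in 10-month libraries, against 26.8, 36.3 and 49.6 CPM in 2-month libraries (-0.81 ± 0.09, adjusted p = 7.1e-06). Lamp5 (-0.31 ± 0.05), Calb1 (-0.16 ± 0.04) and Rasgrf2 (-0.23 ± 0.03) fell less. Wfs1 is also on the list of 10 hippocampal markers, whose sums are given above, and the part of hippocampal tissue was not tested. Those sums had medians of 99.3 CPM at 10 months and 161 CPM at 2 months, so that Wfs1 made up much of them and of their difference. Rorb, a transcription factor of layer 4, rose (0.21 ± 0.06). In the deep layers, Foxp2 (-0.34 ± 0.07) and Crym (-0.32 ± 0.06) fell and Fezf2 (0.31 ± 0.07), Etv1 (0.20 ± 0.04) and Tbr1 (0.19 ± 0.04) rose. Of 14 general glutamatergic genes 5 rose and 3 fell. Camk2a, the calcium kinase of excitatory synapses, fell (-0.35 ± 0.03, adjusted p = 2.5e-08), while Slc17a7 did not pass the test (-0.03 ± 0.04) and the transcription factor Neurod6 rose (0.46 ± 0.06).

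Of 22 interneuron genes 11 fell and 3 rose. Tac1, the tachykinin precursor, which striatal neurons express as well, had 9.98, 10.9 and 12.2 CPM in 10-month libraries, against 13.2, 28.6 and 33.4 CPM in 2-month libraries (log2 difference -1.29 ± 0.14, adjusted p = 9.9e-06). Calb2, calretinin (-0.999 ± 0.15), Ndnf, of layer 1 interneurons (-0.73 ± 0.10), Nos1 (-0.54 ± 0.07) and Gad2 (-0.34 ± 0.07) fell, Gad1 did not pass the test (-0.03 ± 0.05), and Pvalb, parvalbumin, rose (0.36 ± 0.05). Vip (0.18 ± 0.04) and Htr3a (0.28 ± 0.09), of another interneuron class, rose as well. The summed striatal markers given above differed between the same libraries.

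Signalling genes of cAMP, calcium and opioids mostly fell. Of 30 genes 17 fell and 4 rose (median -0.15), and 5 of them are also on the striatal list: Penk, Ppp1r1b, Pde10a, Adcy5 and Pdyn. Penk, proenkephalin, had 14.4, 19.1 and 23.5 CPM in 10-month libraries, against 54.7, 82.00 and 96.04 CPM in 2-month libraries (log2 difference -2.09 ± 0.11, adjusted p = 8.0e-09). The opioid receptors Oprk1 (-0.99 ± 0.16) and Oprm1 (-0.86 ± 0.20) fell, as did the kinases Camkk2 (-0.33 ± 0.03) and Camk4 (-0.16 ± 0.03), while Pde1a rose (0.27 ± 0.03). Of 22 glutamate receptor genes 13 fell and 3 rose, with Grin2a (-0.37 ± 0.13), Grin2c (-0.43 ± 0.04) and Grm3 (-0.25 ± 0.04) among those that fell and the shared NMDA subunit Grin1 not passing (0.00 ± 0.05). Among 16 GABA receptor and transporter genes 6 fell and 5 rose. Gabrd, the delta subunit of receptors outside synapses, had 45.3, 48.2 and 51.3 CPM in 10-month libraries, against 58.04, 64.04 and 68.6 CPM in 2-month libraries (-0.40 ± 0.03, adjusted p = 3.7e-08), and the glial transporter Slc6a11 fell (-0.49 ± 0.04), whereas Gabra5 rose (0.22 ± 0.05). Of 44 potassium channel genes 13 fell, led by Kcnh4 (-0.57 ± 0.07, adjusted p = 4.0e-06), and 8 rose, led by Kcnc2 (0.28 ± 0.02, adjusted p = 4.1e-08). Of 22 immediate early genes, the fast response to neuronal activity, 3 fell, Egr2 (-1.08 ± 0.26, adjusted p = 0.0052), Npas4 (-0.47 ± 0.13, adjusted p = 0.013) and Nptx2, and none rose, and Fos (-0.20 ± 0.19) and Arc (-0.52 ± 0.25) did not pass the test. Npas4 did not pass in the fit of 48 libraries (adjusted p = 0.0725). The share of immediate early genes that fell was below the 17% of all genes.

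Genes of energy metabolism moved by small amounts, while single stress genes moved by more. Of 26 nuclear genes of the respiratory chain 12 rose and none fell, with a median of 0.08, and Uqcrc2 (0.15 ± 0.03, adjusted p = 9.0e-04) was the largest rise. Of 13 mitochondrially encoded transcripts 7 fell and none rose (median -0.14), with mt-Cytb at -0.20 ± 0.04, adjusted p = 4.5e-04. Of 24 genes of cholesterol synthesis 7 fell, among them Dhcr7 (-0.29 ± 0.04) and Cyp51 (-0.17 ± 0.04; without the sex term its adjusted p = 0.0506), and 1, Stard4, rose (0.12 ± 0.04). The sterol element TCACNCCAC, on either strand, was present in 1 of 17 promoters of that list, Hmgcs1, and in 1.22% of all promoters. Of 16 heat shock genes 6 rose, led by Hsp90aa1 (0.18 ± 0.03), and 3 fell, led by Hspb1 and Hspa1b (-0.57 ± 0.19), a gene nearly identical to Hspa1a. Of 23 genes of endoplasmic reticulum stress 3 rose and 6 fell, beside 34.7% of all genes that passed in either direction. Of 17 p53 targets, of which a share below 34.7% passed, 4 rose and 1, Cdkn1a (-0.66 ± 0.19, adjusted p = 0.016), fell. Eda2r, a receptor of the TNF family, had 0.620, 0.883 and 1.25 CPM in 10-month libraries, against 0.258, 0.296 and 0.408 CPM in 2-month libraries (1.46 ± 0.17, adjusted p = 1.7e-06), the largest rise of that list. Among 11 mismatch repair genes, a pathway known to lengthen CAG repeats in somatic cells, 3 rose, among them Mlh3 (0.14 ± 0.03, adjusted p = 0.0023) and Lig1 (0.13 ± 0.05, adjusted p = 0.0496), and Msh3 (0.04 ± 0.04) did not pass. Lig1 missed the threshold in 7 other fits of all libraries, DESeq2 among them, and in 13 of the 16 that leave out 1 library (adjusted p = 0.0575 to 0.121), and without it 2 of the 11 rose, beside 17.7% of all genes. Lysosomal genes (4 rose and 4 fell of 17) and clock genes (4 rose and 3 fell of 17) were divided in direction.

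The 8 Q175 libraries of 6 months, whose names have another format, were not used in these tests. Their mean lay between those of 2 and 10 months for 43.5% of the genes that fell, 34.1% of those that rose and 15.4% of those that did not pass. Over 2, 6 and 10 months, mean Onecut2 was 4.63, 6.04 and 13.3 CPM and mean Plk5 was 18.2, 15.05 and 4.997 CPM, so that most of their difference lay after 6 months. Serpina3n averaged 8.33, 13.6 and 13.1 CPM, near its 10-month level by 6 months. Hap1 averaged 162, 204 and 86.4 CPM, with its highest mean at 6 months. These 6-month values are a description and were not tested.

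**Figure D3:**
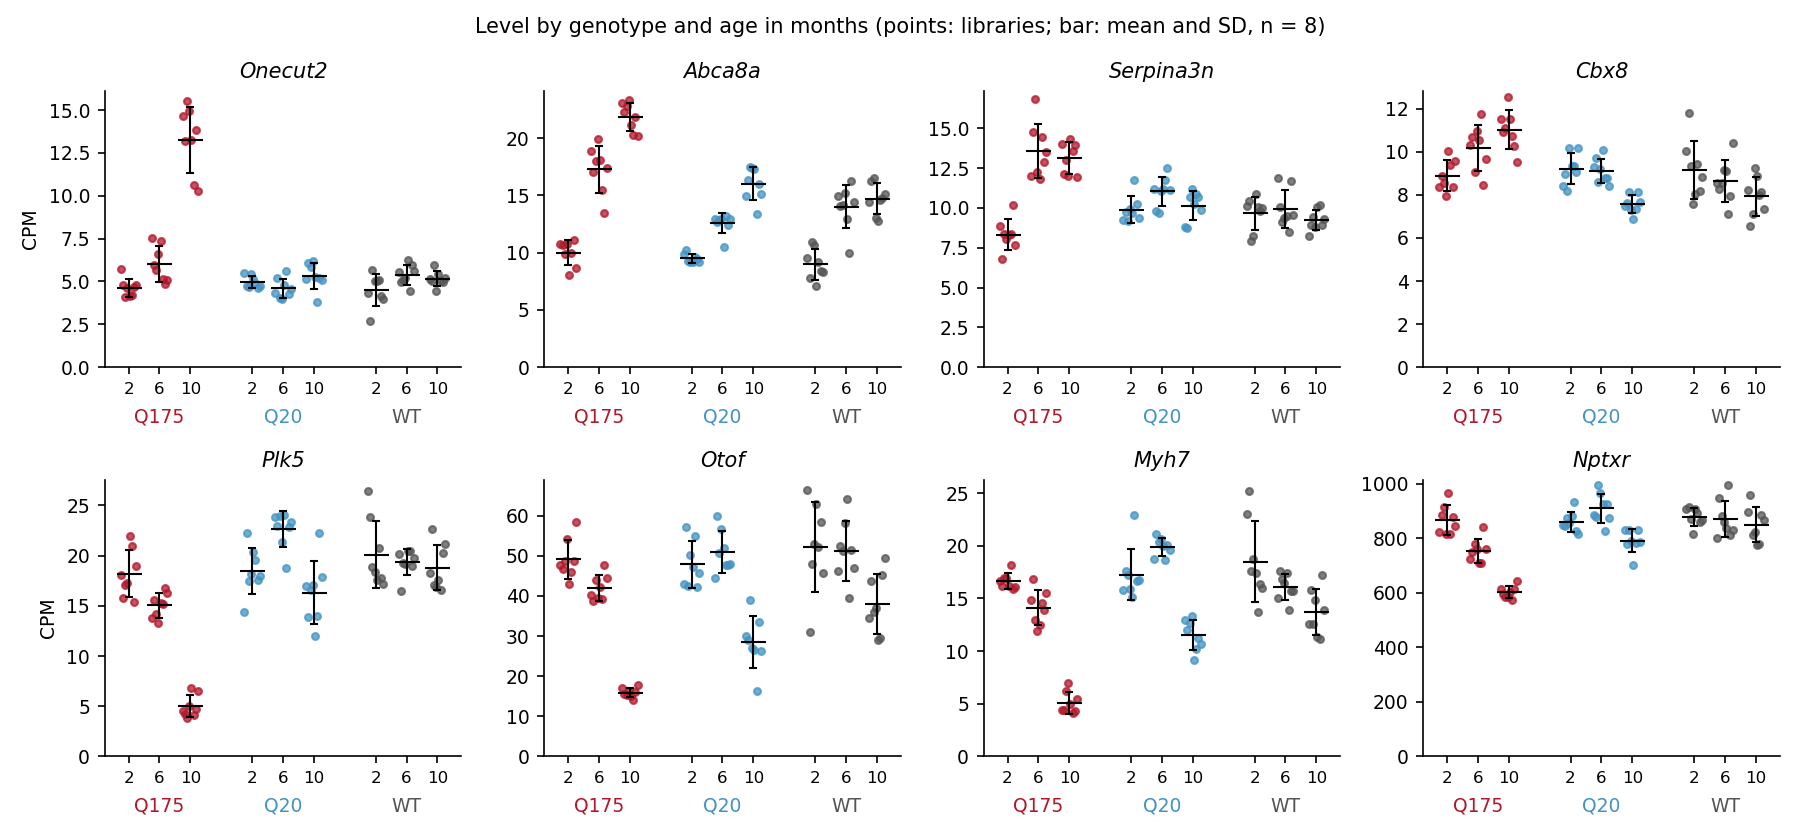
Normalised level in CPM of 8 genes in Q175, Q20 and WT libraries at 2, 6 and 10 months; points are libraries, the bar and whiskers are mean and SD of 8. Onecut2 averages 13.3 CPM in Q175 mice of 10 months and 5.15 CPM in WT mice of that age, and Plk5 4.997 and 18.8 CPM.

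Many of these age differences were seen in Q20 and WT mice as well. In a fit of 48 libraries of the 3 genotypes with 17176 genes, 28.6% passed for age in Q175, 18.3% in Q20 and 15.3% in WT mice. Of 2697 genes that fell in Q175, 1049 also fell in WT, which is 38.9% of the genes that fell in Q175 and 71.5% of those that fell in WT. Of 2219 that rose in Q175, 696 also rose in WT, 31.4% of the Q175 and 59.7% of the WT list. With Q20, 1181 were shared among genes that fell and 851 among genes that rose. The age differences of Spag6 (1.12 in Q175, 1.18 in Q20 and 1.25 in WT), Marcksl1 (-0.98, -0.98 and -0.86) and Col3a1 (-1.60, -1.50 and -1.52) passed in each genotype.

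The difference between genotypes in the age difference was tested directly. It passed for 3.07% of genes against Q20 (401 lower and 127 higher in Q175) and for 2.89% against WT (369 lower and 128 higher). Both contrasts share the 16 Q175 libraries. Of these genes, 317 passed in both contrasts with the same sign, a count used here to choose genes: 256 were lower in Q175 (1.49%) and 61 higher (0.355%). Of the 256, 219 fell with age in Q175, and for 144 the age difference passed in neither Q20 nor WT. Without 4 libraries of low correlation (male 2 of Q175 at 2 months, male 2 of Q20 at 10 months, and females 1 and 2 of WT at 2 months), left out after the data had been seen, 796 genes passed against Q20 and 1140 against WT. Q20 libraries of 10 months had summed choroid plexus markers of 31.2 to 1523 CPM, and WT libraries of 10 months of 20.8 to 729 CPM. At 2 months the ranges were 21.2 to 188 CPM in Q20 and 19.3 to 114 CPM in WT. The part of these markers in either contrast was not tested.

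Among the 8 genes named as lower, Plk5 fell in Q175 mice, and its age difference passed in neither Q20 nor WT. Its mean was 18.2, 15.05 and 4.997 CPM at 2, 6 and 10 months in Q175, 18.5, 22.6 and 16.3 CPM in Q20 and 20.1, 19.3 and 18.8 CPM in WT mice, and its age difference in Q175 differed by -1.69 log2 units from that in Q20 (edgeR adjusted p = 7.4e-10) and by -1.77 from that in WT (adjusted p = 3.4e-10). Synaptic genes were among the others. Gabrd fell in Q175 (-0.40), against 0.10 in Q20 and 0.07 in WT, neither of which passed (difference from WT -0.47, adjusted p = 8.7e-08). Nptxr, the membrane-bound pentraxin, averaged 868, 755 and 602 CPM at 2, 6 and 10 months in Q175 (difference from WT -0.48, adjusted p = 3.4e-08), and Gsg1l, an auxiliary subunit of AMPA receptors, differed by -0.41 (adjusted p = 1.2e-06). The kinase Hipk4 (-0.68), the transporter Slc4a11 (-1.46), Myh7 (-1.28) and Gpr153 (-0.79) completed the 8 lower ones, given as differences from WT.

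On the other side, Onecut2 differed by 1.41 from Q20 (adjusted p = 4.1e-10) and by 1.31 from WT (adjusted p = 2.2e-09), its age differences in Q20 (0.10) and WT (0.20) not passing. Serpina3n differed by 0.72 from WT (adjusted p = 1.1e-07), with 0.66 in Q175, 0.04 in Q20 and -0.07 in WT. Cbx8, a subunit of Polycomb repressive complex 1, rose with age in Q175 and fell in the other genotypes, with 0.31 in Q175, -0.28 in Q20 and -0.21 in WT. Cldn14, a tight junction protein, did so too (0.77, -0.87 and -1.04), at low levels: its mean was 0.911 CPM at 10 months and 0.531 CPM at 2 months in Q175, 0.265 and 0.491 CPM in Q20 and 0.270 and 0.559 CPM in WT mice. Klhl1 (-0.42, -1.43 and -1.42) and Dpysl3, a cytoskeletal regulator of axon growth (-0.12, -0.50 and -0.48), fell in each genotype and fell less in Q175. Zfp503, a zinc finger repressor, fell in Q20 (-0.61) and WT (-0.75), while its value in Q175 was 0.28. In some WT and Q20 libraries with low striatal markers, Klhl1 and Zfp503 were low too. At 6 months, WT male 2 had the lowest Klhl1 (1.64 CPM), Zfp503 (2.24 CPM) and summed striatal markers (683 CPM) of its group. Female 3 of Q20 had the lowest of its group at that age (1.72, 2.09 and 908 CPM). In Q175 mice, Zfp503 was 2.47 to 5.07 CPM at 10 months and 2.37 to 3.37 CPM at 2 months, while summed striatal markers were lower at 10 months. Klhl1 was 2.00 to 2.82 CPM and 2.08 to 4.55 CPM at these ages. The part of striatal tissue in the values of Klhl1 and Zfp503 was not tested.

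**Figure D4:**
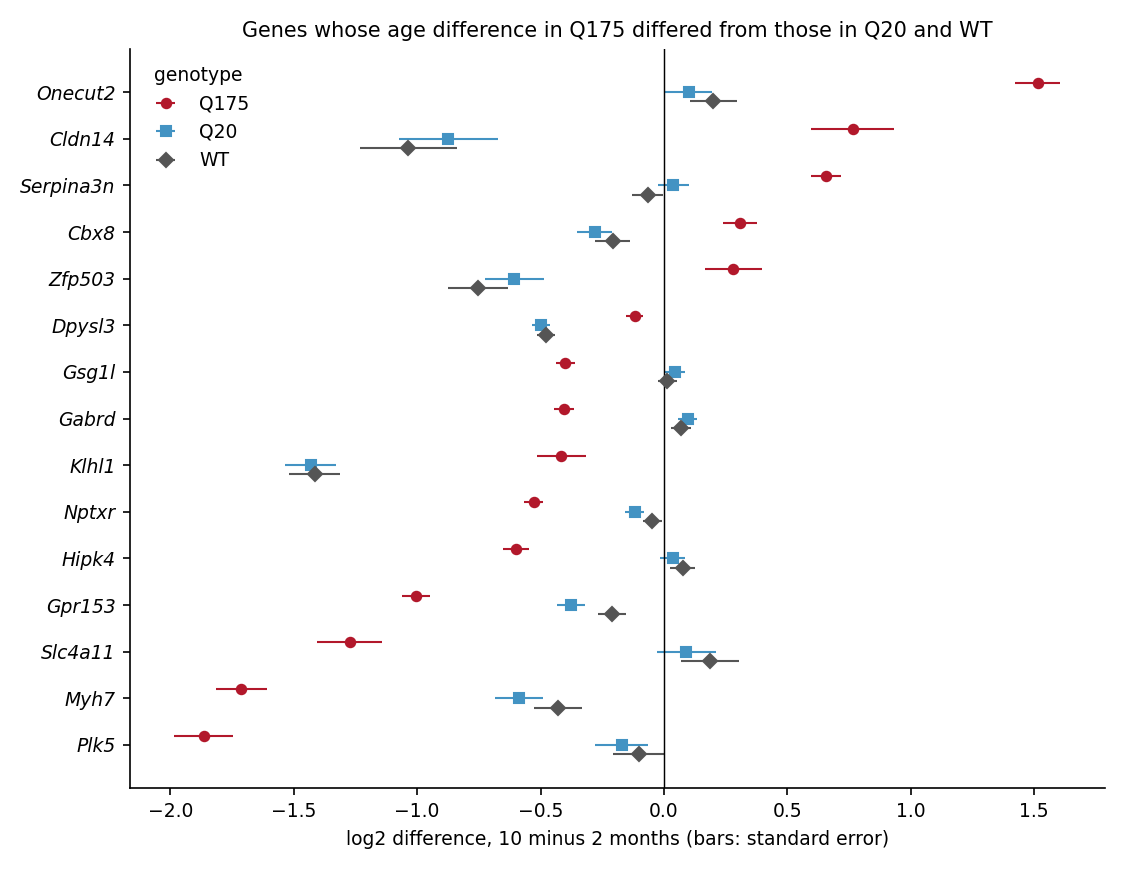
Log2 difference, 10 minus 2 months, in Q175, Q20 and WT mice for 15 genes named from the genes that differed from both Q20 and WT; bars are standard errors of the fit of 48 libraries. Plk5 has -1.87 in Q175, -0.17 in Q20 and -0.10 in WT, and Onecut2 1.52, 0.10 and 0.20.

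Among the lists, 5 of 12 upper-layer genes passed both contrasts as lower in Q175: Otof, Wfs1, Lamp5, Rasgrf2 and Nptx2. Of all genes, 1.49% passed both as lower and 0.355% as higher, and the counts in this paragraph are to be read beside these shares. Lamp5 had an age difference of -0.32 in Q175, 0.29 in Q20 and 0.20 in WT. The list's median was -0.20 in Q175, 0.04 in Q20 and 0.04 in WT mice. Hippocampal markers moved with this contrast: 2 of 10, Wfs1 and Rasl10a, passed as lower in Q175, and the list's median was -0.10 in Q175, 0.23 in Q20 and 0.11 in WT mice. Their summed level at 10 months was 87.4 to 107 CPM in Q175, 125 to 154 CPM in Q20 and 118 to 156 CPM in WT mice, the Q175 libraries lying below all others. Wfs1, which is on both lists, made up much of that sum in Q175, so that the sum is not separate from the upper-layer values. The part of hippocampal tissue in the upper-layer values was not tested. Of 30 signalling genes 5 passed, Camk2a (-0.36 in Q175, 0.03 in Q20 and 0.07 in WT), Camkk2, Itpka, Arpp21 and Ppp1r1b. Of 44 potassium channel genes 4 passed: Kcnh4, Kcnip2, Kcnv1 and Kcnj9, of which the age difference of Kcnj9 in Q175 did not itself pass (-0.06 ± 0.04). Of 18 astrocyte markers 4 passed, Aldh1l1, Aldoc, Gja1 and Glul, and the list's median was -0.28 in Q175, -0.06 in Q20 and -0.08 in WT mice. Enpp6 (0.23 in Q175, -0.40 in Q20 and -0.26 in WT) and Apod passed as higher among oligodendrocyte genes. Of the 20 striatal markers 2 passed, Ppp1r1b and Rasd2, and the list's median was -0.95 in Q175, -0.996 in Q20 and -0.91 in WT mice. For interferon-stimulated genes the medians were 0.19, 0.04 and 0.04, and no member passed both contrasts.

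**Figure D5:**
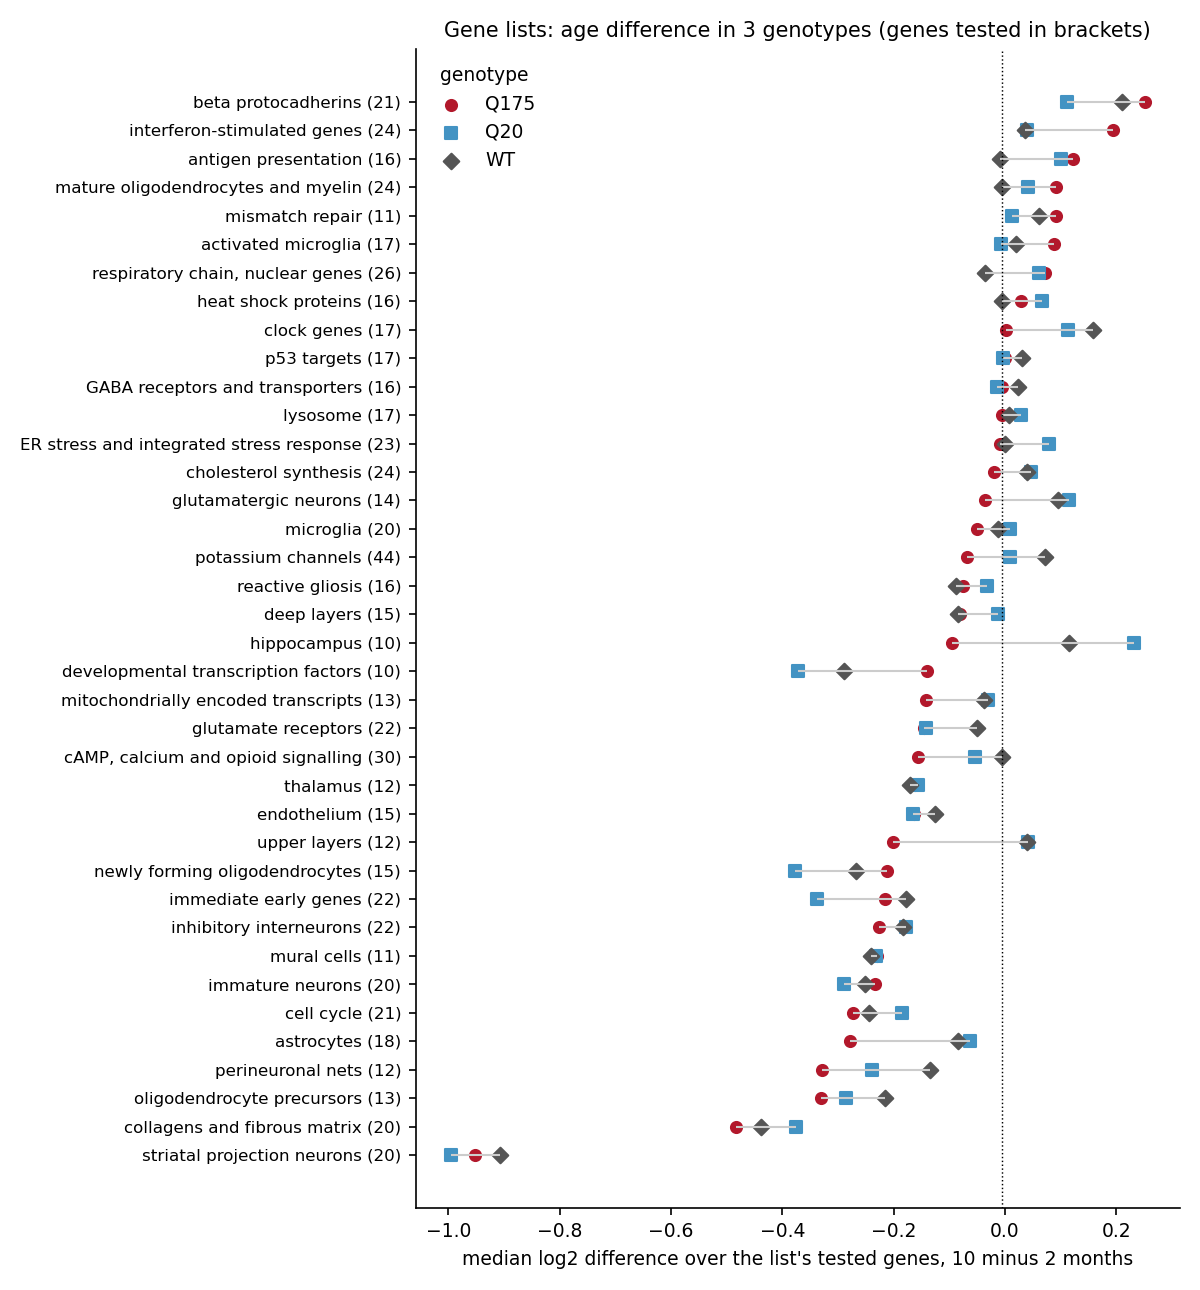
Median log2 difference, 10 minus 2 months, over the tested genes of each list in Q175, Q20 and WT mice, from the fit of 48 libraries; blood, liver and choroid plexus lists are not drawn (choroid plexus medians were -1.35 in Q175, 1.92 in Q20 and 1.04 in WT mice), and the dotted line is the median of all genes in Q175. Medians of several lists lie apart in Q175, among them upper-layer, astrocyte, interferon-stimulated, hippocampal, general glutamatergic, signalling, clock and mitochondrially encoded genes. Those of collagens and striatal markers are low in each genotype, and the medians were not tested.

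The age difference of Q175 females did not differ from that of Q175 males for any of 16967 genes in edgeR's test of the interaction (0% called), with 4 libraries per sex and age. At an unadjusted p of 0.05, 480 genes passed, a smaller share than the 0.05 that chance alone would give. The smallest adjusted p was 0.97 in edgeR's test, and DESeq2 called 0 genes as well.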

How the data were processed

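PolyA RNA of frozen cortex was sequenced on Illumina HiSeq instruments, per the labels. The authors deposited estimated counts per gene (rounded here to whole numbers) and FPKM values, which are scaled per length and library. Per the submitters' processing notes CASAVA 1.8.2 was used. No aligner, quantification tool, build or annotation is given in the sources used here. Of 39179 Ensembl gene IDs in the deposited tables, 37607 matched a symbol of GENCODE M21 (GRCm38), from which positions come. Totals were 29338750 to 47353396 estimated counts per library over the series.

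Genes were filtered with filterByExpr of edgeR 4.0.16 (minimum count 10, minimum total 15), libraries scaled by TMM, and quasi-likelihood F tests (two-sided, robust) run with sex as a covariate, with Benjamini-Hochberg adjustment over all genes and a threshold of 0.05. CPM are scaled by TMM over 72 libraries. Q175 was fitted alone (16 libraries) and with Q20 and WT (48 libraries), where the age differences of genotypes were compared. A standard error is the estimate divided by the root of its F value. The 56 pairs of Q175 libraries within a group all differed by more than counting error (lowest ratio of chi-square to its degrees of freedom 3.89). Both fits were tested on simulated counts. For Q175 alone, 36% of 50 genes changed by 0.2 on the log2 scale were recovered and 86% of 50 changed by 0.8. For the age difference in Q175 minus Q20 these were 12% and 78%. False calls made up 2% and 5.3% of calls. Many differences near 0.2 were thus missed. Named genes were, leaving out models with clone names, the 12 with the smallest p each way, the 8 with the largest difference each way among those with at least 1 CPM and no overlap, up to 4 of the smallest p in each of 41 lists, Htt, and 8 each way that passed against both Q20 and WT. A few of the genes named this way are left unreported. Other list members are named as examples, chosen after their values were seen. The groups, the lists and the tests were chosen with earlier results of these data known. Alternatives were DESeq2 1.42.0, limma 3.58.1 on log2(FPKM + 0.1) or (FPKM + 1), other scaling, no filter, no sex term, a replicate block, a GC offset and leaving out libraries. Promoters are from RefSeq GRCm38.p6.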

Additional observations from a re-analysis of the deposited data

Results flagged for a closer look

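In 98 groups of 8 libraries (49 genes at 10 and at 2 months), 11 values stood apart from the other 7 libraries of their group, by a gap above the 95% critical value of 0.526 for 8 samples; chance marks about 1 group in 20. At 10 months, male 2 had 132 CPM of Htt, against 156 to 166 CPM in the other 7 libraries, and 1.64 CPM of Dmgdh. Also at 10 months, female 4 had 1.86 CPM of En2 and female 3 had 0.846 CPM of Six3, both above the rest. At 2 months, male 1 had 0.347 CPM of Isl1, against 2.26 to 3.82 CPM in the others, and 49.4 CPM of Nbl1. The other values apart at 2 months were 5.73 CPM of Onecut2 in female 1, 452.1 CPM of Arpp21 in female 2, 18.2 CPM of Myh7 in male 2, and 55.0 CPM of Dpysl3 and 76.3 CPM of Gsg1l in male 3, the last of these below the rest.

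For 42 of the genes named for the contrast, for age or from the lists, the age difference in Q175 differed from that in Q20 and in WT by the test of the difference itself. Values are differences from WT on the log2 scale. Among the 15 genes taken from the contrast by the smallest p, the difference was 1.31 for Onecut2, 0.36 for Dpysl3, 0.72 for Serpina3n, 0.9999 for Klhl1, 1.801 for Cldn14, 1.04 for Zfp503 and 0.51 for Cbx8. It was -1.77 for Plk5, -0.79 for Gpr153, -1.28 for Myh7, -0.68 for Hipk4, -0.47 for Gabrd, -1.46 for Slc4a11, -0.48 for Nptxr and -0.41 for Gsg1l. Of the genes with the smallest p for age, it was 0.41 for Abca8a, -1.18 for Otof, -0.30 for Arpp21, -0.59 for Trp53i11 and -0.42 for Nbl1. In the neuronal and hippocampal lists it was -0.66 for Wfs1, -0.55 for Rasl10a, -0.38 for Rasgrf2, -0.53 for Nptx2, -0.51 for Lamp5, -0.24 for Tubb2b and -0.26 for Rasd2. In the signalling, receptor and channel lists it was -0.43 for Camk2a, -0.36 for Camkk2, -0.39 for Itpka, -0.43 for Ppp1r1b, -0.29 for Grm3, -0.84 for Kcnh4, -0.34 for Kcnip2, -0.27 for Kcnj9 and -0.26 for Kcnv1. In the glial lists it was -0.19 for Gja1, -0.27 for Aldh1l1, -0.26 for Aldoc, -0.25 for Glul, 0.29 for Apod and 0.50 for Enpp6.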

How the results depend on the processing

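The count of genes passing between 10 and 2 months was 4916 to 5869 over DESeq2, other size factors, no filter, no sex term, the replicate block, the fit of 48 libraries, FPKM in limma and the GC offset. Leaving out 1 library at a time gave 5081 to 5860 genes (2437 to 2818 higher and 2593 to 3042 lower), 446 to 578 against Q20, 395 to 515 against WT and a log2 difference of -0.06 to -0.01 for Htt. Over DESeq2, other size factors, no filter, no sex term, the block, the GC offset and a fit of only the 4 groups compared, 412 to 756 genes passed against Q20 and 382 to 635 against WT; the fit of 4 groups gave 756 and 388 genes. Without the 4 libraries of low correlation, chosen after the data had been seen, 796 genes passed against Q20 and 1140 against WT; the cause was not tested. The deviations of libraries with the same replicate number had correlations of -0.10 to 0.17 within group and sex, above 0.1 for 3 of the 8 numbers (males 2, 3 and 4), and 6 of 16 libraries correlated best with their own number; since not every pair was above 0.1 and no label pairs the animals, the numbers were not used as pairs. With the replicate block 5869 genes passed with age, 486 against Q20, 461 against WT and 0 by sex, with Htt at -0.03. The median over all genes moved by less than 0.1 under every scaling tried. Of 214 results of single genes, 14 missed the threshold in at least 1 alternative, and none changed direction: C1qc, Npas4, Prkcd, Cyp51, Tm7sf2, Per3, Hlf, Plk2, Ccng1, Cdkn1a, Ndufv2, mt-Nd4l, Lamp2 and Lig1. Cdkn1a missed it with the replicate block (log2 difference -0.65, adjusted p = 0.0541), and Lig1 in 13 of the fits that leave out 1 library and in 7 others. Genes well under 1 CPM rest on few reads a library, and small differences there may be missed. Recovery in the simulated counts was not split by level.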
